A study of Rattus norvegicus with 13 samples.

Results

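Liver-enriched transcription factors were measured as 15 probe sets of 8 genes: Cebpa, Cebpb, Cebpd, Hnf4a, Foxa1, Foxa2, Foxa3 and Onecut1. They are all the probe sets, of 8740 on the array other than controls, that the array's annotation assigns to 1 of these genes alone. The array names 4736 genes in this way. After the dimmest probe sets were left out, 14 of the 15 remained among the 5244 tested, and all 8 genes kept at least 1. The RNA came from the livers of time-mated female Sprague Dawley rats, one-colour Affymetrix arrays were used, and 13 arrays fall into 4 groups by title. EtOH-160 (4 arrays) were undernourished rats given 12 g ethanol per kg per day within a diet of 160 kcal per day per kg of body weight to the power 0.75. TEN-160 (3 arrays) were undernourished rats given 160 kcal without ethanol. EtOH-220 (3 arrays) received the same ethanol dose at 220 kcal, and TEN-220 (3 arrays) received 220 kcal without ethanol and were the study's control. The day of gestation, and whether an array holds 1 animal or a pool, are not given in the sources used here, so p-values measure only the spread between these samples.

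These factors are DNA-binding proteins that, in combination, keep hepatocyte genes active. Cebpa, Cebpb and Cebpd encode C/EBP factors, basic leucine zipper proteins: C/EBP alpha is linked to the differentiated, metabolic state, whereas C/EBP beta and delta respond to hormones, fasting and inflammation. Hnf4a encodes a nuclear receptor of the hepatocyte. Foxa1, Foxa2 and Foxa3 encode forkhead proteins that open chromatin at liver genes, and Onecut1 encodes HNF6, a cut-homeodomain factor of hepatocytes and bile ducts.

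The 250 bases before the start of transcription of Cebpa, Cebpb and Foxa2 are shown because the results below turn on these genes and the RefSeq promoter table (GRCr8) holds them. It held 6 promoters of 5 of the 8 genes. Capitals mark every match, on either strand, to any of 4 short motifs that were searched. These were the TATA box, spelled TATAAA, and a site bound by C/EBP factors, spelled TTGCNNAA. The others were the half-site of the cAMP response element, spelled TGACG, and a site bound by the ONECUT family, spelled ATTGAT.
Cebpa, chr1:96896334-96896583, plus strand: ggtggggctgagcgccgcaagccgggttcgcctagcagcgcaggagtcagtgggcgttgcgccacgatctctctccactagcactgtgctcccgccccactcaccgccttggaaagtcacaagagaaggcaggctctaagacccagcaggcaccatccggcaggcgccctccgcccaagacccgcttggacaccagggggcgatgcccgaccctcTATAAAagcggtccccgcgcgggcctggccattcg
Cebpb, chr3:176816755-176817004, plus strand: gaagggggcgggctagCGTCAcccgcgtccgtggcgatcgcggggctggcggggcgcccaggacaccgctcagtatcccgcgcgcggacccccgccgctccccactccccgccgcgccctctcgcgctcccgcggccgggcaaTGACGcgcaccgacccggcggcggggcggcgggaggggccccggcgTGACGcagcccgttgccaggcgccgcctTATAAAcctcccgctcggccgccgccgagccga
Foxa2, chr3:155927509-155927758, minus strand: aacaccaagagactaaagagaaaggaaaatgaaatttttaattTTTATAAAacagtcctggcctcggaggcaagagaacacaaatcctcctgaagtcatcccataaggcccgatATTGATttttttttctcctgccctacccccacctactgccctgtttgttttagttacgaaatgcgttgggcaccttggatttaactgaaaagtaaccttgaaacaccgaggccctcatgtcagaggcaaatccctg

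TATAAA began 35 bases before the start in Cebpa and 33 bases before it in Cebpb. Cebpb also carried TGACG on either strand at 234, 107 and 61 bases before the start, and Foxa2 carried ATTGAT at 136 bases. In Foxa2 the TATAAA matches of both strands overlap, at 207 and 205 bases. Of the promoters not shown, the first of Hnf4a carried the ONECUT site as ATCAAT at 29 bases, and that of Foxa3 carried TATAAA at 82 bases. Of 33469 promoters in the table, 12.9% held TATAAA, 18.2% TGACG, 7.1% ATTGAT and 9.22% TTGCNNAA. TTGCNNAA matched none of the 3 windows shown. A match is a description of the letters and not a bound site.

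The deposited values are MAS5 signals, a linear measure of probe brightness. They are given with array TEN-220 replicate 1 multiplied by 3.76, because its trimmed mean signal was 133, against 501 on each of the other 12. A log2 change is the difference of group means of log2 signal, and a probe set was called at a Benjamini-Hochberg adjusted p under 0.05 in limma over all 5244 tested. The arrays of 1 group, TEN-160, lay away from the rest. On the first principal component (30.1% of the variance) they lay between 30.5 and 41.6, and the others between -13.8 and -2.63. The 5' to 3' signal ratio of BioDn, a spiked-in hybridisation control, was 0.422 to 0.497 in TEN-160, against 0.132 to 0.210 on the remaining 10 arrays. The GAPDH 3' to 5' signal ratio was 1.5 to 1.73 in EtOH-160, 1.03 to 1.24 in TEN-160, 1.04 to 1.47 in EtOH-220 and 1.52 to 2.32 in TEN-220. In comparisons that use TEN-160, the diet and the difference seen in BioDn cannot be told apart, because they coincide. Every call among the members in this fit, the interaction included, comes from a comparison that uses TEN-160. The GAPDH ratio did not overlap between EtOH-220 and TEN-220, nor between EtOH-160 and EtOH-220. There too the diet and this ratio cannot be told apart. The actin 3' to 5' signal ratio overlapped between all groups. It was 1.77 to 2.31 in EtOH-160, 1.91 to 2.96 in TEN-160, 1.93 to 2.18 in EtOH-220 and 1.97 to 3.00 in TEN-220. The part of these differences in the results was not tested. Of all tested probe sets, 805 (15.4%) had their 3 TEN-160 signals all above or all below the other 10 arrays, and 3 of the 14 members (21.4%) did: 1 each of Cebpa, Cebpb and Cebpd, all below.

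The labelled tissue was checked against hepatocyte markers. All 5 on the array were above background on every array, with summed signals of 105150 to 135695 in EtOH-160, 130908 to 168574 in TEN-160, 123608 to 143987 in EtOH-220 and 127731 to 139693 in TEN-220. Background was a signal of 46.6. Endothelial markers (4 of 5 above background on all arrays) summed to 1075 to 1667 in EtOH-160, 1313 to 2309 in TEN-160, 1224 to 1433 in EtOH-220 and 921 to 1070 in TEN-220. Stellate cell markers (5 of 7) summed to 1363 to 2243 in EtOH-160, 2125 to 4581 in TEN-160, 1543 to 1845 in EtOH-220 and 1992 to 2187 in TEN-220. Kupffer cell markers (6 of 7) summed to 7372 to 8710 in EtOH-160, 8836 to 11110 in TEN-160, 7496 to 10628 in EtOH-220 and 9051 to 9798 in TEN-220. Cholangiocyte markers (1 of 4) summed to 255 to 361 in EtOH-160, 299.7 to 328.6 in TEN-160, 265 to 317 in EtOH-220 and 225 to 256 in TEN-220. Neutrophil markers (0 of 2) summed to 18.4 to 121 in EtOH-160, 96.9 to 1011 in TEN-160, 18.6 to 119 in EtOH-220 and 92.7 to 334 in TEN-220. The part of these cell types in the results was not tested, and in whole liver fewer cells of a type and less RNA per cell cannot be told apart.

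The C/EBP genes gave every call among the members in the fit described. In undernourished rats without ethanol (TEN-160 against TEN-220), Cebpa X12752_at, both Cebpb probe sets and Cebpd rc_AA946292_at were lower. In undernourished rats with ethanol (EtOH-160 against TEN-160) the same 4 probe sets were higher. The lowest group was therefore TEN-160 for each of the 3 genes on these probe sets. Both comparisons use the same TEN-160 arrays and so are not independent of each other.

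Cebpa (X12752_at) had signals of 781, 677, 758 and 770.1 in EtOH-160, 416, 377 and 442 in TEN-160, 595, 595 and 671 in EtOH-220, and 687, 522 and 677 in TEN-220. The TEN-160 signals were below all others, and the 2 groups on 220 kcal overlapped. The log2 change was 0.86 for EtOH-160 minus TEN-160 (SE 0.149, 1.81-fold, limma adjusted p = 0.00152) and -0.60 for TEN-160 minus TEN-220 (SE 0.159, limma adjusted p = 0.0186). For EtOH-220 minus TEN-220 it was -0.01. The ethanol effect at 160 kcal exceeded that at 220 kcal by 0.87 (SE 0.218, limma adjusted p of the interaction = 0.0283). The call for TEN-160 against TEN-220 was lost without TEN-220 replicate 1 (-0.53, limma adjusted p = 0.0842), TEN-220 replicate 3 (-0.54, 0.0588) or TEN-160 replicate 2 (-0.54, 0.0562). It was also lost with only the 2 groups (limma adjusted p = 0.0592) and with signals as deposited. The interaction was called under 15 of 23 alternatives and was lost on omitting any 1 of EtOH-220 replicates 1 and 2, TEN-160 replicates 1 and 2, TEN-220 replicates 1 and 3, and EtOH-160 replicate 1. The highest limma adjusted p among these was 0.083, without TEN-220 replicate 1. A second Cebpa probe set, rc_AI236300_at, exceeded background on only 6 of 13 arrays and was not called in any comparison. Its signals were 34.3 to 296 in EtOH-160, 29.0 to 39.8 in TEN-160, 59.9 to 523 in EtOH-220 and 38.7 to 78.9 in TEN-220, and its correlation with the first was 0.34 over 13 arrays.

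Cebpb, whose product drives gluconeogenic and acute phase genes, had the largest called changes for TEN-160 minus TEN-220 and for the interaction. For EtOH-160 minus TEN-160 this held for S77528cds_s_at but not for X60769mRNA_at. The Cebpb probe set X60769mRNA_at had signals of 1213, 1377, 1378 and 1373 in EtOH-160, 911, 789 and 801 in TEN-160, 1333, 1152 and 1019 in EtOH-220, and 2032, 2148 and 1768 in TEN-220. All 3 TEN-220 arrays were above, and all 3 TEN-160 arrays below, every array given ethanol. The change was 0.68 for EtOH-160 minus TEN-160 (SE 0.141, 1.60-fold, limma adjusted p = 0.00429). It was -1.25 for TEN-160 minus TEN-220 (SE 0.151, limma adjusted p = 0.000238). At 220 kcal ethanol gave -0.77 (SE 0.151), with no overlap and an adjusted p in limma of 0.102, which is not a call. The difference between the ethanol effects was 1.45 (SE 0.207, limma adjusted p = 0.00219).

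The second Cebpb probe set, S77528cds_s_at, had the same called directions. Its signals were 302, 361, 323 and 389 in EtOH-160, 128, 192 and 72.1 in TEN-160, 165, 246 and 248 in EtOH-220, and 550.3, 341 and 416 in TEN-220. TEN-160 overlapped EtOH-220 here, but lay below EtOH-160 and TEN-220. The change was 1.5 for EtOH-160 minus TEN-160 (SE 0.288, 2.83-fold, limma adjusted p = 0.00278) and -1.82 for TEN-160 minus TEN-220 (SE 0.308, limma adjusted p = 0.00153). The interaction was 2.48 (SE 0.422, limma adjusted p = 0.00516). Across the 13 arrays the probe sets correlated at 0.79.

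Cebpd (rc_AA946292_at) had signals of 318, 403, 269 and 438 in EtOH-160, 184, 174 and 193 in TEN-160, 248, 319 and 355 in EtOH-220, and 314, 229.7 and 378 in TEN-220. TEN-160 was the lowest group, without overlap, while the other groups overlapped one another. The change was 0.94 for EtOH-160 minus TEN-160 (SE 0.22, 1.91-fold, limma adjusted p = 0.00836). For TEN-160 minus TEN-220 it was -0.72 (SE 0.235, limma adjusted p = 0.0479). The second of these calls was held under only 9 of 24 alternatives. It was lost on omitting any 1 TEN-160 array, or 1 of TEN-220 replicates 1 and 3, EtOH-220 replicates 2 and 3, and EtOH-160 replicates 1 and 2. The highest limma adjusted p among these omissions was 0.159, without TEN-220 replicate 3. The call was also lost with no filter (limma adjusted p = 0.0678), a 20% filter (0.0612) or no variance trend (0.0546). A replicate block, only the 2 groups and signals as deposited lost it too. The interaction of 0.92 had a limma adjusted p of 0.0929 and was not called, but was after quantile normalization (1.09, limma adjusted p = 0.0412) and median centring (1.22, limma adjusted p = 0.0176).

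The other Cebpd probe sets did not follow it. M65149_at had signals of 90.8, 88.3, 93.2 and 69.6 in EtOH-160, 142, 71.7 and 254 in TEN-160, 76.5, 62.1 and 42.3 in EtOH-220, and 113, 118 and 153 in TEN-220. At 220 kcal the EtOH-220 arrays lay below the TEN-220 arrays, with a change of -1.12 (SE 0.389, limma adjusted p = 0.366). At 160 kcal its change was -0.69 (limma adjusted p = 0.191), opposite in sign to that of rc_AA946292_at. Without TEN-160 replicate 2 it was -1.16 (limma adjusted p = 0.0255). On M65149_at TEN-160 was the highest group by geometric mean, at 137, against 127 in TEN-220, and these groups overlapped. The 2 probe sets correlated at -0.40 over the 13 arrays, so the direction given for Cebpd is that of 1 probe set. The third, rc_AI045030_s_at, was at 7.9 to 21.1, below background on all 13 arrays, and was not tested.

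**Figure D1:**
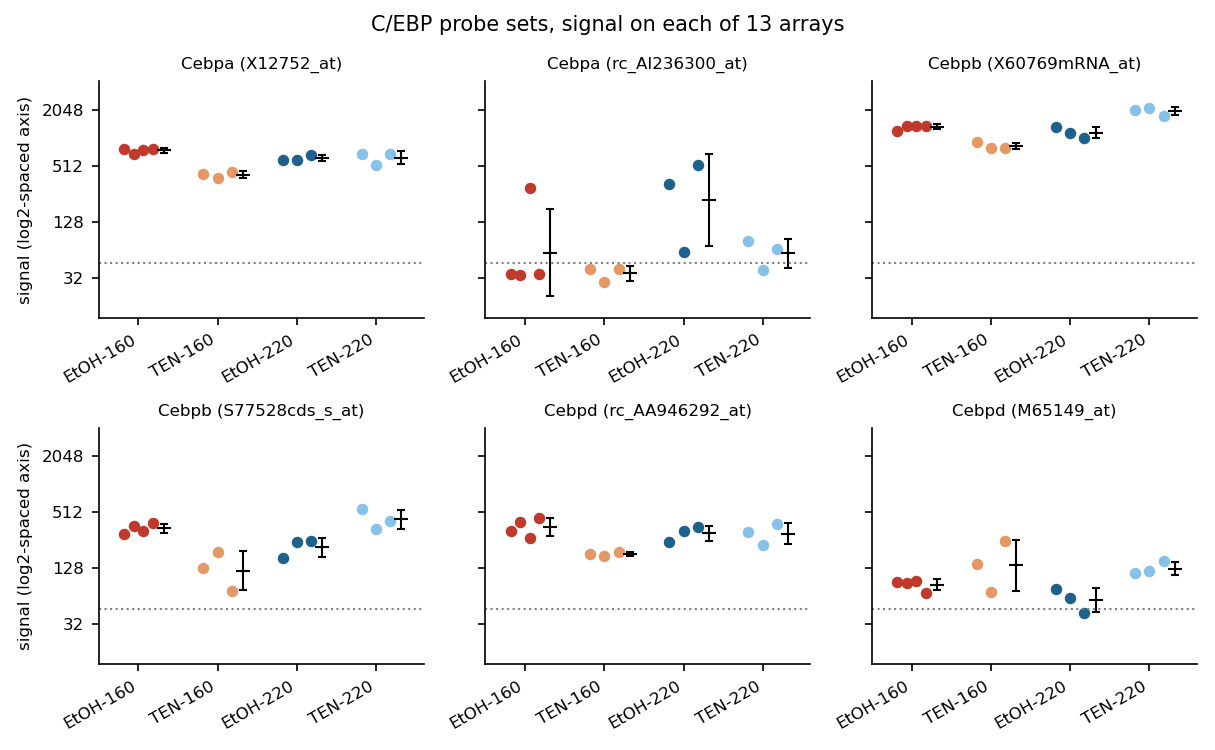
MAS5 signal (log axis) of the Cebpa, Cebpb and Cebpd probe sets on each of 13 arrays, by group from EtOH-160 to TEN-220. Points are arrays, bars beside them the geometric mean and SD of log2 signal, and the dotted line the background of 46.6. Cebpb X60769mRNA_at is lowest in TEN-160 (789 to 911) and highest in TEN-220 (1768 to 2148).

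The ratio of the Cebpb to the Cebpa signal on the same array does not depend on how the array was scaled. It was chosen for description after its values were seen. The log2 ratio of X60769mRNA_at to X12752_at averaged 0.84 ± 0.16 in EtOH-160 (SD, n = 4), 1.02 ± 0.14 in TEN-160, 0.91 ± 0.28 in EtOH-220 and 1.66 ± 0.34 in TEN-220 (SD, n = 3 each). On the other 10 arrays it was 0.60 to 1.16, below the range of 1.38 to 2.04 in TEN-220. TEN-220 thus had the most Cebpb signal relative to Cebpa, and the levels of these probe sets cannot be read as relative transcript numbers.

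Hnf4a was not called in any comparison of the fit described, but its arrays at 220 kcal did not overlap on 2 of its 3 probe sets. X57133mRNA_at had signals of 1109, 739, 1194 and 1448 in EtOH-160, 666, 759.9 and 845 in TEN-160, 1149.6, 1047 and 1104 in EtOH-220, and 748, 627 and 949.5 in TEN-220. D10554_s_at had signals of 569, 565, 554 and 704 in EtOH-160, 459.7, 589 and 489 in TEN-160, 607, 535 and 683 in EtOH-220, and 418, 327 and 442 in TEN-220. Both probe sets were above TEN-220 on every EtOH-220 array. The changes were 0.53 (SE 0.226, limma adjusted p = 0.455) and 0.63 (SE 0.181, limma adjusted p = 0.277). At 160 kcal they were 0.53 (limma adjusted p = 0.0841) and 0.22, and the first of these was called under 3 of 24 alternatives: without EtOH-160 replicate 2 (0.72), after median centring (0.73) and with array weights (0.63). The third probe set, X57133mRNA_g_at, had 306 to 595 in EtOH-160, 288 to 499.8 in TEN-160, 329.8 to 479.9 in EtOH-220 and 238 to 349.5 in TEN-220. Its groups overlapped in all 5 pairs compared. The 3 Hnf4a probe sets correlated with one another at 0.55 to 0.74.

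The forkhead genes had no call in the fit described. Foxa1 (X55955_at) was the flattest member: 107 to 159 in EtOH-160, 119 to 161 in TEN-160, 109 to 135 in EtOH-220 and 116 to 154 in TEN-220, with every pair of groups overlapping. Foxa3 lay at 225 to 304 in EtOH-160, 174 to 209.5 in TEN-160, 204 to 258 in EtOH-220 and 178 to 261 in TEN-220 on AB017044exon_g_at. On that probe set EtOH-160 arrays lay above TEN-160 arrays, with a change of 0.48 (limma adjusted p = 0.0883). It was called after quantile normalization (0.62, limma adjusted p = 0.0262) and median centring (0.68, limma adjusted p = 0.0164). Its other probe set, AB017044exon_at, overlapped between those groups and correlated with it at 0.34.

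Foxa2, which encodes a regulator of fasting and bile acid genes, was lowest in EtOH-220. L09647_at had signals of 236, 319, 326 and 254 in EtOH-160, 362, 293 and 328 in TEN-160, 161, 187 and 214 in EtOH-220, and 312, 293 and 222 in TEN-220. Every EtOH-220 array was below every array of the other 3 groups. The change was -0.55 for EtOH-220 minus TEN-220 (SE 0.205, limma adjusted p = 0.408) and 0.59 for EtOH-160 minus EtOH-220 (SE 0.191, limma adjusted p = 0.235).

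Onecut1 (Y14933mRNA_s_at) had signals of 1048, 1628, 1258 and 968 in EtOH-160, 1620.5, 1088 and 1247 in TEN-160, 481, 656 and 779.5 in EtOH-220, and 931, 1030.4 and 677 in TEN-220. Both 160 kcal groups lay above the 220 kcal group of the same diet. The change was 0.94 for EtOH-160 minus EtOH-220 (SE 0.23, limma adjusted p = 0.104) and 0.59 for TEN-160 minus TEN-220 (limma adjusted p = 0.117). Neither was called, though the second was with array weights. Arrays with and without ethanol overlapped at each energy intake. Of 2 cholangiocyte markers tested, Epcam was called higher in TEN-160 than in TEN-220 (1.09, limma adjusted p = 0.0191) and Cftr was at 0.25, and their part in the Onecut1 signal was not tested.

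**Figure D2:**
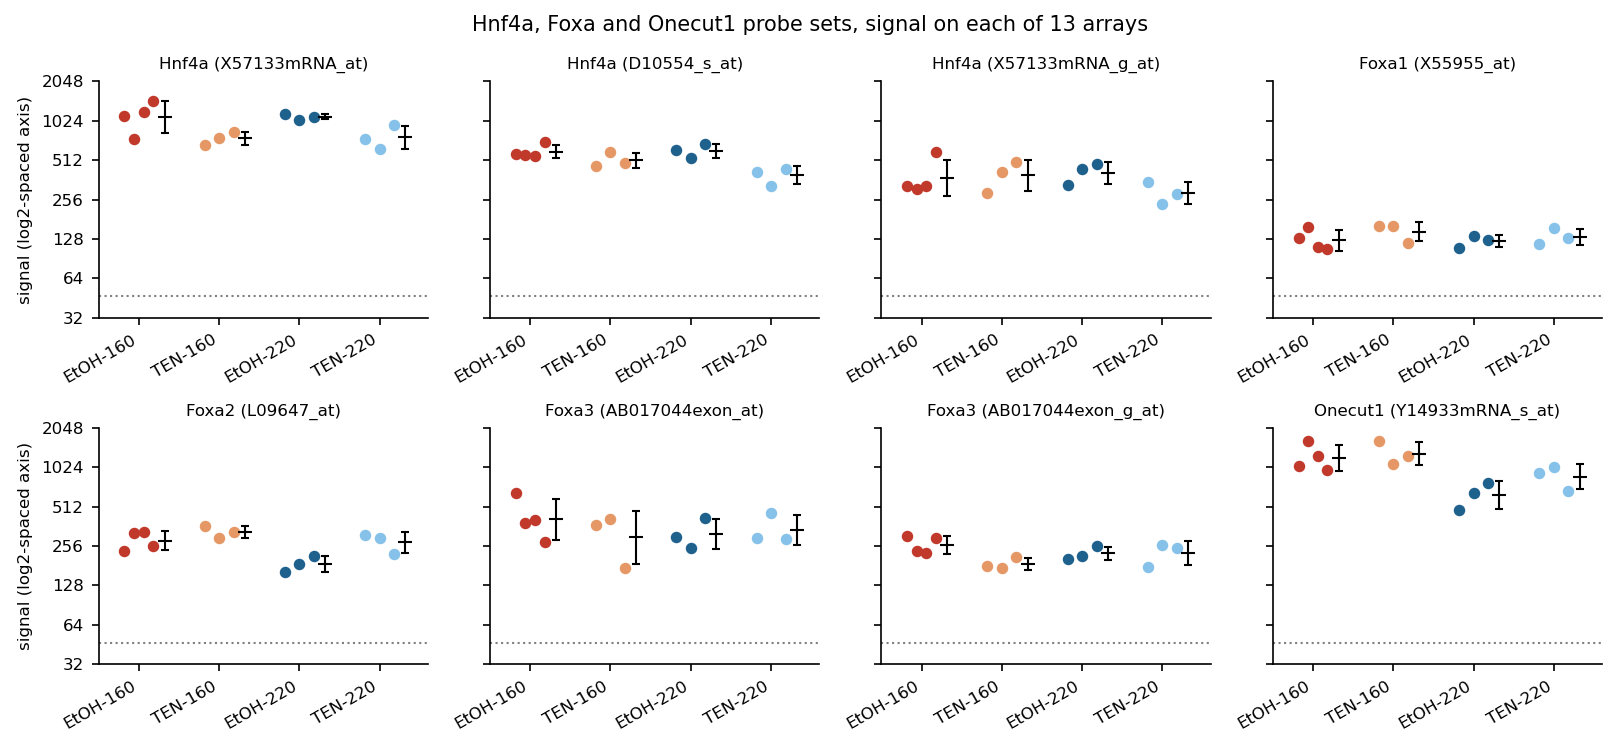
MAS5 signal (log axis) of the Hnf4a, Foxa1, Foxa2, Foxa3 and Onecut1 probe sets on each of 13 arrays, by group from EtOH-160 to TEN-220. Points are arrays, bars beside them the geometric mean and SD of log2 signal, and the dotted line the background of 46.6. Foxa2 and Onecut1 have their lowest group mean in EtOH-220.

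Foxa2 and Onecut1 had the most similar pattern of all 91 pairs of member probe sets, whose correlations of log2 signal over the 13 arrays ran from -0.77 to 0.92. For this pair Pearson's r was 0.92 and Spearman's rho 0.88. Without EtOH-220 replicate 1 and EtOH-160 replicate 2, the arrays farthest from the median, r was 0.89 over 11 arrays. The deviations of arrays from their group means correlated at 0.89 as well, so the likeness was also present within groups. Among the other 5243 tested probe sets, Foxa2 ranked 1 by correlation with Onecut1. Points share an array and its scaling, and r was 0.91 after quantile normalization and 0.92 after median centring. The pair was picked for its correlation, so no p is given. Cebpa and Cebpd (X12752_at and rc_AA946292_at) followed at 0.87.

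**Figure D3:**
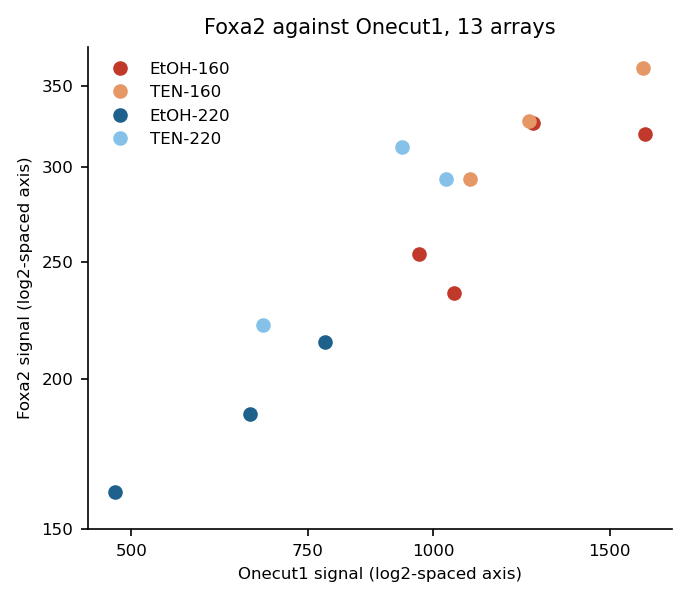
Foxa2 signal (vertical) against Onecut1 signal (horizontal), both log-spaced, with 1 point per array coloured by group (13 arrays). The 3 EtOH-220 arrays are at the low Foxa2 end (161 to 214), and arrays high in one gene are high in the other.

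Set against the whole array, the members' counts were as follows. For EtOH-160 minus TEN-160, 4 of 14 member probe sets were called higher and 0 lower. Of all tested probe sets, 10.1% were called higher and 22.2% in either direction. Groups did not overlap for 5 of 14 members, beside 31.5% of all tested: the 4 called and Foxa3 AB017044exon_g_at. The members' median change was 0.47, against -0.07 over all tested. For TEN-160 minus TEN-220, 0 were higher and 4 lower, beside 9.15% called lower and 18.3% called in either direction. No overlap was seen for 6 of 14, beside 37%: the 4 called, and Onecut1 and Hnf4a D10554_s_at (0.38), both higher. The median change was -0.10, against 0.07. The 4 called probe sets stand for 3 genes, and the share without overlap was near that of the array.

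The interaction was called higher for 3 of 14 members, with a median of 0.39, against -0.07. Of all tested, 3.7% were called higher and 7.7% in either direction. For EtOH-220 minus TEN-220, 0 of 14 were called in limma, beside 0.0191% of all tested. An unadjusted p under 0.05 was reached by 7 of the 14, beside 10.3% of all tested. Of the 14, 6 did not overlap between those groups, beside 16.9%: both Cebpb probe sets, Cebpd M65149_at and Foxa2 lower, and 2 of Hnf4a higher. For EtOH-160 minus EtOH-220, 0 were called in limma, beside 0.21% of all tested, and 4 had an unadjusted p under 0.05, beside 10.9%. Here 4 did not overlap, beside 10.3%: Cebpa X12752_at (0.27), Cebpb S77528cds_s_at (0.66), Foxa2 and Onecut1, all higher. For EtOH-160 minus TEN-220, which compares both changes of diet at once, 0 were called in limma, beside 2.19% of all tested. An unadjusted p under 0.05 was reached by 3, beside 14.3%, which for 14 probe sets is near the share of the array. Groups did not overlap for 3, beside 16.6%: Cebpb X60769mRNA_at at -0.57 (SE 0.141, limma adjusted p = 0.053), Hnf4a D10554_s_at at 0.60 (SE 0.169, limma adjusted p = 0.0851) and Cebpd M65149_at at -0.58.

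**Figure D4:**
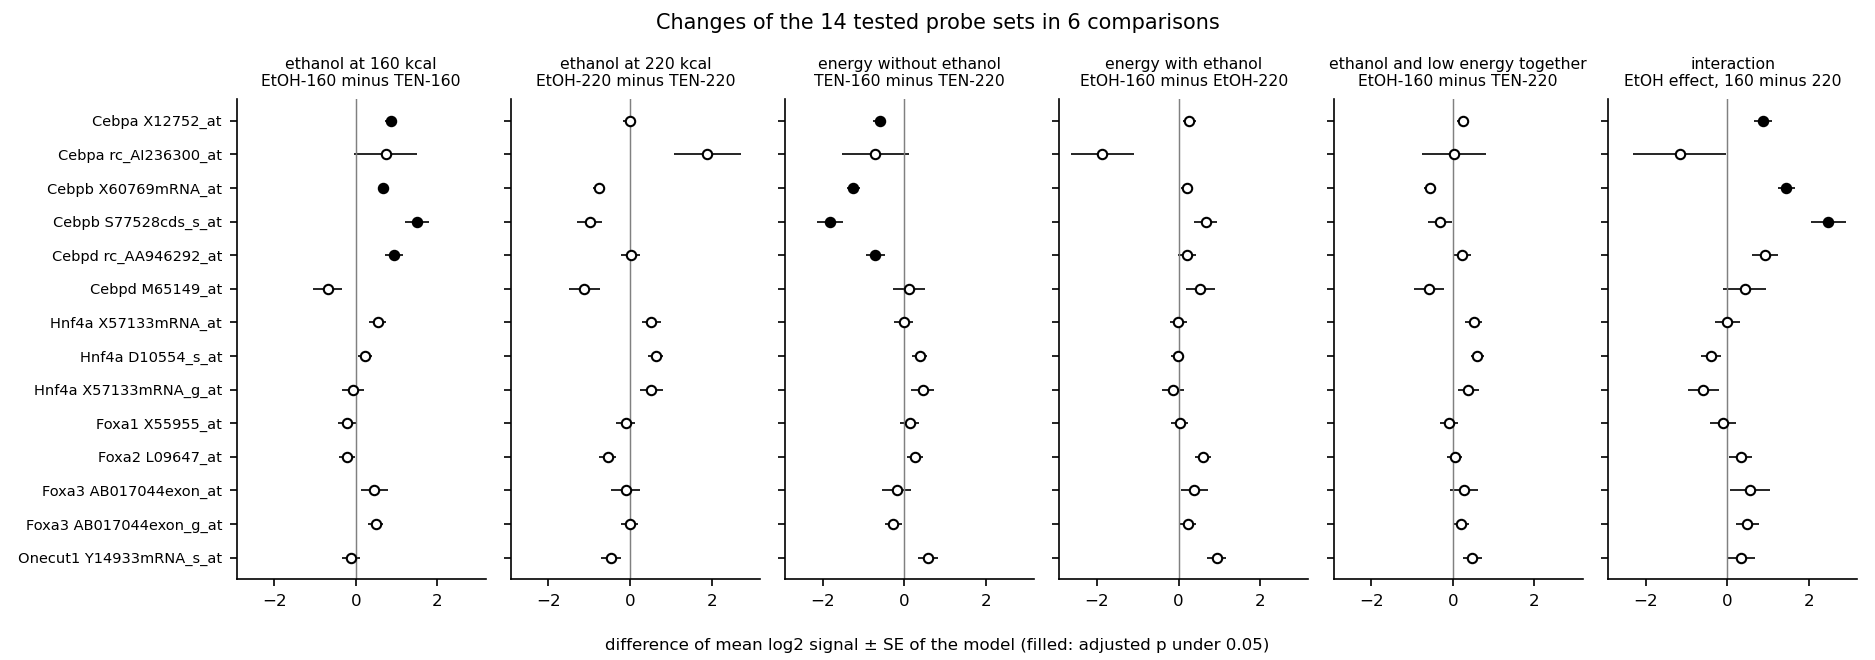
Log2 change of each tested member probe set with its SE, in 6 panels, 1 for each comparison. The horizontal axis is the difference of mean log2 signal. Filled points passed an adjusted p of 0.05 in limma. Cebpa X12752_at, both Cebpb probe sets and Cebpd rc_AA946292_at are filled as higher in EtOH-160 than in TEN-160 and lower in TEN-160 than in TEN-220. Cebpa X12752_at and both Cebpb probe sets are filled for the interaction as well.

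Genes that textbooks give as targets of these factors were counted from lists, each gene by its brightest probe set. Of all 3129 genes tested, 10.3% were called higher and 10.4% lower in EtOH-160 relative to TEN-160, and 7.77% higher and 9.2% lower in TEN-160 relative to TEN-220. The medians over all genes were -0.05 and 0.04. Of 14 tested C/EBP targets, 5 rose and 0 fell in EtOH-160 relative to TEN-160, with a median of 0.11. Among them were the urea cycle genes Asl (1.44) and Arg1 (0.79), the serine dehydratase gene Sds (4.32) and the desaturase gene Scd (1.29), whose adjusted p in limma was at most 0.00204. In TEN-160 relative to TEN-220, 3 rose (Igfbp1 by 3.17, Pck1 by 2.48 and F9 by 0.49) and 1 fell (Scd by 1.47), with a median of 0.35. Pck1, the gene of the rate-limiting gluconeogenic enzyme, had a geometric mean of 2904 in TEN-160 and 519 in TEN-220, so it was higher where Cebpb was lower. Scd had 5435 in TEN-160 and 15056 in TEN-220. The list thus held members that moved with Cebpa and Cebpb across these groups and members that moved the other way.

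Of 17 tested HNF4A targets, 1 rose (Hpd, 0.51) and 1 fell (Ttr, transthyretin, -0.62) in EtOH-160 relative to TEN-160, with a median of -0.01. In TEN-160 relative to TEN-220, 4 rose and 0 fell (Apob 1.27, Pck1 2.48, Ttr 0.46, F9 0.49), with a median of 0.17, beside the 7.77% of all genes called higher. Ttr and F9 were each called under 12 of 24 alternatives in that comparison. Of 13 tested FOXA targets, 5 rose and 0 fell in that comparison, with a median of 0.21. They included Slc10a1, the bile acid transporter gene (1.18), and Cpt1a, the gene of the entry enzyme of fatty acid oxidation (2.01). In EtOH-160 relative to TEN-160, 1 of these 13 rose (Afp, 0.98) and 3 fell (Ttr, Cpt1a at -1.23 and Slc10a1 at -0.48), beside 10.3% and 10.4% of all genes. The fall of Slc10a1 was called under only 5 of 24 alternatives. Of 9 tested ONECUT1 targets, 3 rose in TEN-160 relative to TEN-220 (Pck1, Ttr and Prlr at 0.96) with a median of 0.27, and 1 fell in EtOH-160 relative to TEN-160 (Ttr). The 9 include Foxa2 (0.26 in TEN-160 relative to TEN-220) and Hnf4a X57133mRNA_at (-0.02), which are themselves members described above. Among the called genes, Pck1, Ttr, F9 and Igfbp1 stand on more than 1 of these target lists. So do Tat, Otc, Alb, Serpina1, Cyp7a1 and Pfkfb1, which were not called. Igfbp1, Pck1 and Ttr were the other FOXA targets that rose in TEN-160 relative to TEN-220. The lists are therefore not independent.

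Acute phase genes were also counted. The list holds plasma protein genes of inflammation, only some of which are taken as induced by C/EBP beta and delta. It also holds the receptor and signalling genes Il6r, Il6st, Stat3 and Socs3. Of 20 tested, 0 rose and 6 fell in EtOH-160 relative to TEN-160, beside 10.3% and 10.4% of all genes, with a median of -0.35, against -0.05. The named ones were Cp, ceruloplasmin (-0.83), Lcn2, lipocalin (-2.78), and the fibrinogen genes Fgg (-0.66) and Fga (-0.84). Lcn2 is also made by neutrophils, and S100a9, the 1 neutrophil marker tested, fell too (-2.82). Its part in the result was not tested. In TEN-160 relative to TEN-220, 4 rose and 0 fell, beside 7.77% and 9.2%, with a median of 0.36, against 0.04: Cp (0.63), the signal transducer gene Il6st (0.81), Apcs (0.48) and the receptor gene Il6r (0.65). Il6r was called under only 9 of 24 alternatives.

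Of 20 other liver transcription factor genes tested, 6 rose and 0 fell in EtOH-160 relative to TEN-160, beside 10.3% and 10.4% of all genes, with a median of 0.23, against -0.05. The 4 with the smallest adjusted p were the nuclear receptor genes Nr2f6 (0.75), Nr0b2 (1.10) and Nr1h2 (0.63), and Srebf1, a regulator of lipid synthesis (1.19). In TEN-160 relative to TEN-220, 1 rose and 5 fell, beside 7.77% and 9.2%, with a median of -0.16, against 0.04. Nr2f6 (-0.92), Srebf1 (-1.54) and Nr1h2 (-0.71) were among the lower ones, and Hlf, a bZIP factor gene (1.11), was the higher one. Srebf1 had geometric means of 771 in EtOH-160, 339 in TEN-160, 1078 in EtOH-220 and 983 in TEN-220, lowest in TEN-160 like Cebpa.

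For EtOH-220 minus TEN-220 no gene of these 6 lists was called, and the medians ran from -0.14 (acute phase) to 0.27 (C/EBP targets), against -0.02 over all genes. In EtOH-160 relative to EtOH-220, 2 C/EBP targets were called, Asl (1.30) and Sds (3.90), both higher, beside 0.128% of all genes. In EtOH-160 relative to TEN-220, 4 C/EBP targets rose and 0 fell, beside 1.12% and 0.895% of all genes, with a median of 0.56: Asl (1.96), Sds (6.20), Arg1 (0.69) and Pck1 (2.58). Of the other lists, 2 FOXA targets (Pck1 and Slc10a1, 0.70), 1 HNF4A target and 1 ONECUT1 target (Pck1 for both) and 1 acute phase gene (Il6r, 0.91) rose there, and 0 genes fell. With the probe sets of a gene averaged, 7 C/EBP targets and 4 FOXA targets were called there. The share of all genes called with that averaging was not counted. Slc10a1 was called in this comparison under 11 of 24 alternatives. The interaction was called for Scd (1.78), Nr2f6 (0.91), Igfbp1 (-2.94) and Hlf (-1.42) among the genes of the 6 lists, for Igfbp1 under only 11 of 23 alternatives.

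**Figure D5:**
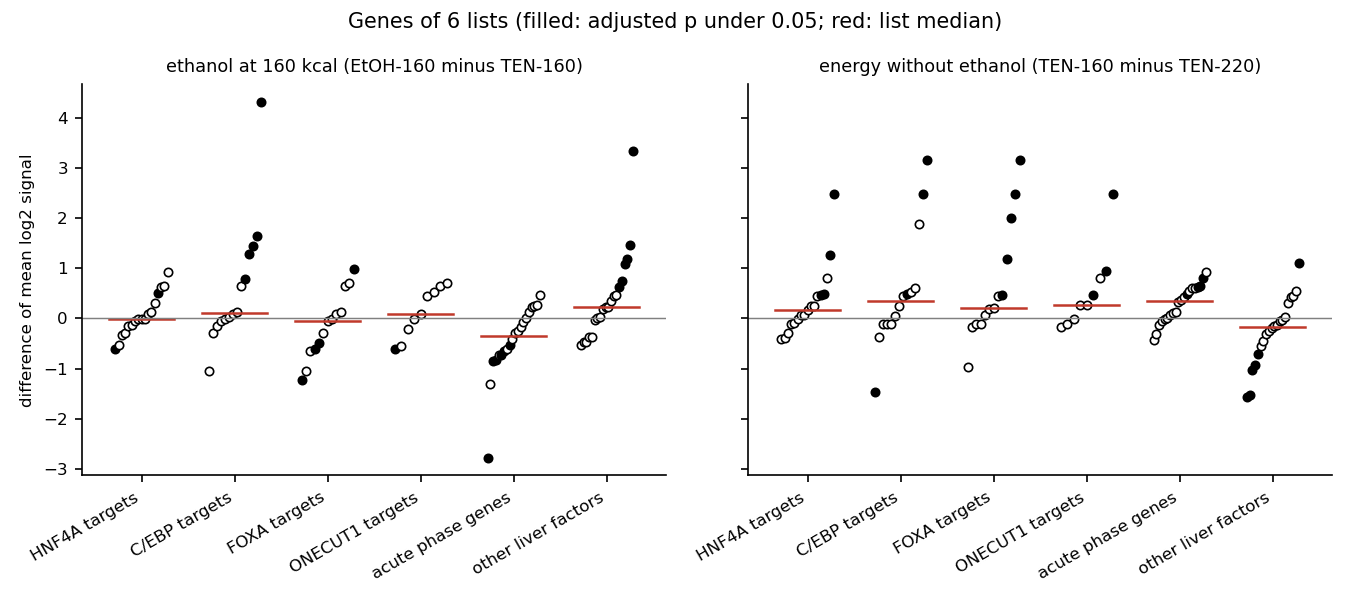
Log2 change of each tested gene of the 6 lists in the comparisons of EtOH-160 with TEN-160 and TEN-160 with TEN-220. Filled points passed an adjusted p of 0.05 in limma, and red lines are the list medians. Acute phase genes have medians of -0.35 and 0.36 in these 2 comparisons.

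The probe sets most like each called member over the 13 arrays were named as a description. For Cebpa they were Tex261 (r = 0.94), Tkfc (0.92) and Grina (0.92). For Cebpb they were Gnas (0.91), Tmem205 (0.89) and Ttc4 (0.88) on X60769mRNA_at, and Plod1 (0.92), Ptpn21 (0.92) and Fasn (0.91) on S77528cds_s_at. For Cebpd they were Mafk (0.92), Anp32a (0.91) and Ninj1 (0.90). The arrays share their groups and scaling, and none of the 3 names for 1 Cebpb probe set recurs for the other.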

How the data were processed

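The authors deposited intensity values on a linear scale, made with MAS5 per the submitters' processing notes, which name no version. Array TEN-220 replicate 1 was multiplied by 3.76 to bring its 2%-trimmed mean to that of the other 12. Signals under 9.4 (10th percentile) were set to it and taken to log2. The 59 controls and the lowest 40% of 8740 probe sets were left out, leaving 5244: 4308 naming 1 gene, 245 several and 691 none. Of the 4308, 4296 matched the gene table by Entrez ID. Background, 46.6, is the 95th percentile of 19 controls foreign to rat.

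limma 3.58.1 in R 4.3.3 (lmFit on 4 groups, eBayes with trend, two-sided, Benjamini-Hochberg per comparison) gave the calls, after a check on simulated data. Figures used matplotlib 3.10.9 in Python 3.11.15. The number of arrays limits the precision. Samples were grouped by title. Replicate numbers gave no sign of pairing the samples. Deviations of same-numbered arrays correlated at -0.11 to 0.09 (18 pairs), and those of differently numbered arrays at -0.15 to 0.19 (45 pairs). With so few arrays per group this cannot exclude a pairing. Every member probe set is described, at most 4 called genes per list and comparison by adjusted p, and the 3 probe sets most like each called member. Alternatives changed the scaling, floor, filter, trend, weights, block, groups and arrays used. Members and lists were chosen with earlier results of these data known.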

Additional observations from a re-analysis of the deposited data

Results flagged for a closer look

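The effect of ethanol differed between energy intakes for Cebpa X12752_at, with an interaction of 0.87 on the log2 scale, and for both Cebpb probe sets, at 1.45 (X60769mRNA_at) and 2.48 (S77528cds_s_at), by the interaction term in limma. That term uses the TEN-160 arrays, in which diet and the BioDn difference cannot be told apart.

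In EtOH-160, 1 array stood far from the other 3 for 4 of the 15 member probe sets examined. By the same measure an array stood apart for 7.22% of 8739 probe sets on the array other than controls, and chance is set to give about 1 in 20. Cebpa rc_AI236300_at was at 296 on replicate 3, Cebpb X60769mRNA_at at 1213 on replicate 1, and Hnf4a at 704 (D10554_s_at) and 595 (X57133mRNA_g_at) on replicate 4. The other 3 Cebpb signals were 1373 to 1378, so they nearly coincide, and the gap to 1213 is small beside the level.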

How the results depend on the processing

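Of 24 alternatives (23 for the interaction), all but the signals as deposited, with TEN-220 replicate 1 unscaled, kept both Cebpb probe sets called in the 3 comparisons that called them, and Cebpa X12752_at and Cebpd rc_AA946292_at called for EtOH-160 minus TEN-160. With signals as deposited, Cebpa X12752_at turned to 0.034 for TEN-160 minus TEN-220, and members called were 0 for that comparison, 0 for EtOH-160 minus TEN-160, 0 for the interaction and 1 for EtOH-220 minus TEN-220. Array weights gave 1 for EtOH-220 minus TEN-220 (Cebpb X60769mRNA_at, adjusted p = 0.0137 in limma) and 2 for EtOH-160 minus TEN-220. Over all 5244 probe sets they gave 18 calls (1 as reported) and 311 calls (115 as reported) in these comparisons. For EtOH-160 minus TEN-220, 2 members were called at an adjusted p under 0.1. With no filter 1 was called there, beside 51 of all 8740 probe sets. With only the 2 groups, 2 were called for TEN-160 minus TEN-220, beside 789 of all 5244 tested. Leaving out 1 array at a time gave 2 to 4 members for TEN-160 minus TEN-220 and 0 to 1 for EtOH-160 minus TEN-220. Over all probe sets it gave 50 to 160 calls for the latter. A replicate block gave 0, 4, 3, 0, 0 and 3 members for ethanol at 220 kcal, ethanol at 160 kcal, energy without ethanol, energy with ethanol, both together and the interaction. Over all probe sets it gave 5, 947, 886, 2, 68 and 314 calls in the same order. Among the members the block lost only Cebpd rc_AA946292_at for TEN-160 minus TEN-220 (adjusted p = 0.0626 in limma).

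Median centring moved the median change of all probe sets to 0.13 from -0.07 for EtOH-160 minus TEN-160, to -0.15 from 0.07 for TEN-160 minus TEN-220, and to 0.22 from -0.07 for the interaction. Of calls over all probe sets, 850 of 1200 were then higher for the first (530 of 1164 as reported), 264 of 1073 for the second (478 of 958) and 445 of 554 for the third (194 of 404). Quantile normalization gave 621 of 1170, 410 of 927 and 210 of 370. Signals as deposited gave 107, 346 and 65 calls, and 58 for EtOH-220 minus TEN-220. Leaving out 1 array gave 517 to 1067 calls for the second. With probe sets of a gene averaged, 7 C/EBP targets were called for EtOH-160 minus TEN-220 instead of 4, and 4 FOXA targets instead of 2. No count over all genes was made with that averaging. The cause of these differences was not tested.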
